A study of Mus musculus with 4 samples.

Results

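The 6 genes described here are Nr3c1, which encodes the glucocorticoid receptor, and 5 genes known to be switched on by it: Tsc22d3, Fkbp5, Zbtb16, Ddit4 and Sgk1. They were chosen by name, and all 6 were found among the 23284 gene symbols with deposited read counts. RNA was sequenced from regulatory T cells (Treg cells) of C57BL/6 mice aged 12 to 13 months, in 4 libraries. Each combination had 1 library, called 2KR eWAT, WT eWAT, 2KR spleen and WT spleen. Here eWAT is epididymal white adipose tissue, a visceral fat depot, and spleen served as its control tissue. PPARg-2KR mice carry a form of the nuclear receptor PPARG with lysines changed to arginine, and WT mice carry the normal form. Whether a library came from 1 mouse or from several is not given in the sources used here, nor is any hormone treatment or hormone level.

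The glucocorticoid receptor is a transcription factor of the nuclear receptor family that sits in the cytoplasm with HSP90 and its cochaperones until a glucocorticoid (corticosterone in mice, cortisol in humans) binds it. It then enters the nucleus and binds glucocorticoid response elements, or acts on other factors such as NF-kB and AP-1, and so raises a set of anti-inflammatory and metabolic genes and lowers many cytokine genes. T cells respond strongly to it, and FKBP5, one of its targets, feeds back on the receptor by lowering its affinity for hormone.

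Count totals were 8315569 in 2KR eWAT, 11186660 in WT eWAT, 15993889 in 2KR spleen and 13250590 in WT spleen. Levels are given as CPM, read counts scaled to a common library size by the trimmed mean of M-values (TMM), and levels of different genes are compared only as FPKM, which is scaled for length. A count of 0 allows up to 0.313, 0.277, 0.197 and 0.242 CPM in the 4 libraries in that order. The Treg label was checked with Foxp3, the lineage factor of these cells, which stood at 804 CPM in 2KR eWAT, 1162 CPM in WT eWAT, 1299 CPM in 2KR spleen and 1409 CPM in WT spleen. The eWAT libraries also held more RNA of other cells. Dendritic cell markers summed to 14537 CPM in 2KR eWAT and 8111 CPM in WT eWAT, against 645 CPM in 2KR spleen and 954 CPM in WT spleen, with 8 of 8 higher in both eWAT libraries. Most of each sum came from the MHC class II presentation genes Cd74, H2-Ab1 and H2-Aa. These were at 8305, 3534 and 2201 CPM in 2KR eWAT and at 4510, 1992 and 1288 CPM in WT eWAT. In 2KR spleen they were at 502, 78.3 and 61.7 CPM, and in WT spleen at 742, 108 and 97.1 CPM. Macrophage and monocyte markers summed to 1722 CPM in 2KR eWAT and 1366 CPM in WT eWAT, against 91.6 CPM in 2KR spleen and 135 CPM in WT spleen, and 10 of 10 found in the counts were higher in both eWAT libraries than in both spleen libraries. Fibroblast and mesothelial markers summed to 231 and 546 CPM in 2KR and WT eWAT, against 4.13 and 7.52 CPM in 2KR and WT spleen, with 8 of 8 higher in eWAT and Lum at 0 reads in both spleen libraries. B cell markers summed to 158 and 89.2 CPM in 2KR and WT eWAT, against 82.5 and 96.7 CPM in 2KR and WT spleen. Of these, 5 of 7 were higher in both eWAT libraries, while Cd79b, which fell, gave much of the spleen sums (48.7 and 58.4 CPM in 2KR and WT spleen). Endothelial markers summed to 278 and 166 CPM in 2KR and WT eWAT, against 193 and 174 CPM in 2KR and WT spleen. Here 5 of 6 were higher in both eWAT libraries, and the spleen sums were nearly all Pecam1 (191 and 172 CPM in 2KR and WT spleen), which fell. Cav1 was at 103 and 59.4 CPM in 2KR and WT eWAT and had 0 reads in both spleen libraries. Treg and T cell markers summed to 6400 and 8391 CPM in 2KR and WT eWAT, against 8553 and 9636 CPM in 2KR and WT spleen. Of 10, 1 was higher in both eWAT libraries. It was Ctla4, at 1881 and 2424 CPM in 2KR and WT eWAT, against 749 and 776 CPM in 2KR and WT spleen. In the tissue test described below, 5 of the 10 fell, 1 rose and 4 did not pass. Of all genes tested 23.2% fell and 33.7% rose. Adipocyte markers summed to 45.3, 30.3, 30.1 and 37.0 CPM in 2KR eWAT, WT eWAT, 2KR spleen and WT spleen, where Lipe gave 28.5 and 33.9 CPM of the 2KR and WT spleen sums. Of 8, 6 were higher in both eWAT libraries. The adiponectin gene Adipoq had 11 reads in 2KR eWAT, 0 in WT eWAT, 8 in 2KR spleen and 3 in WT spleen. In bulk RNA, fewer cells of a type and less RNA per cell cannot be told apart.

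The first question was how the receptor and its targets differ between fat and spleen Treg cells. The receptor gene itself, the kinase gene Sgk1 and the weakly expressed Zbtb16 were higher in eWAT, Ddit4 was lower, and Tsc22d3 and Fkbp5, the most used readouts of receptor activity, did not pass the test. So 3 of the 6 genes rose in eWAT and 1 fell, where 33.7% of the 16488 genes tested rose and 23.2% fell (edgeR quasi-likelihood test, 2 eWAT against 2 spleen libraries, Benjamini-Hochberg adjusted p under 0.05). Zbtb16 reached the minimum level for testing only through eWAT and so could hardly be called lower. Of the other 5 genes 3 were called, Nr3c1 and Sgk1 higher and Ddit4 lower. Among genes averaging at least 20 CPM, 10.2% rose and 42.8% fell. Both eWAT libraries lay above both spleen libraries for 3 of the 6 genes and below them for 1, against 44.3% and 37.5% of all genes tested. Each side of the test mixes the genotypes, so the p-values cover the variation among these libraries, genotype included, and no more.

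**Figure D1:**
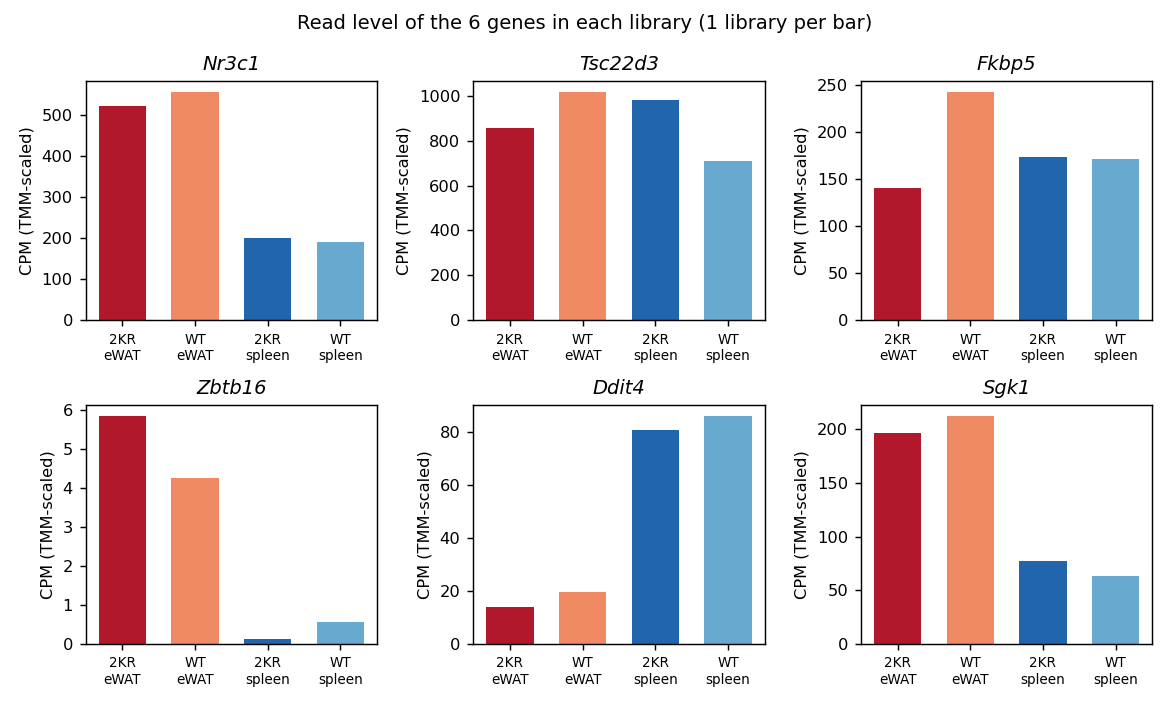
TMM-scaled CPM of the 6 genes (vertical axes, each from 0 with its own scale) in the 4 libraries, 1 bar per library with no replicate. Nr3c1, Zbtb16 and Sgk1 stand higher in both eWAT libraries than in both spleen libraries, Ddit4 stands lower, and Tsc22d3 and Fkbp5 overlap between tissues.

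Nr3c1 (chromosome 18, 39570199 to 39646899 in mm9) had 5008 reads in 2KR eWAT and 6016 in WT eWAT, against 3052 in 2KR spleen and 2363 in WT spleen. That corresponded to 522 CPM in 2KR eWAT, 556 CPM in WT eWAT, 200.2 CPM in 2KR spleen and 191 CPM in WT spleen. Both eWAT libraries lay far above both spleen libraries, and within each tissue the genotypes were close. The log2 fold change of eWAT over spleen was 1.46 (SE 0.22, edgeR adjusted p = 0.000165), a 2.76-fold difference. In FPKM the receptor stood at 94.9 in 2KR eWAT, 83.3 in WT eWAT, 29.3 in 2KR spleen and 27.2 in WT spleen, which placed it at percentiles 95.5, 94.7, 83.5 and 82.6 of all genes of those libraries. In this scale 2KR eWAT was the highest library, whereas in TMM-scaled CPM it was WT eWAT.

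Fkbp5 (chromosome 17, 28536040 to 28623057), the HSP90-bound immunophilin that restrains the receptor, behaved differently. It had 1341 reads or 140 CPM in 2KR eWAT, 2615 reads or 242 CPM in WT eWAT, 2637 reads or 173 CPM in 2KR spleen and 2116 reads or 171 CPM in WT spleen. WT eWAT was the highest library and 2KR eWAT the lowest, with the spleen libraries side by side between them, so the tissues overlapped. The tissue log2 fold change was 0.15 (SE 0.24, edgeR adjusted p = 0.611). This value rested on which eWAT library was used: it was 0.42 (adjusted p = 0.0389) without 2KR eWAT and -0.40 (adjusted p = 0.0516) without WT eWAT.

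Tsc22d3 (chromosome X, 137074068 to 137135061) encodes GILZ, a leucine zipper protein that binds NF-kB and AP-1 subunits and carries much of the anti-inflammatory action of glucocorticoids in lymphocytes. It was by far the most abundant of the 6 genes, averaging 493 FPKM over the 4 libraries against 59.9 for Sgk1, 58.6 for Nr3c1, 52.8 for Fkbp5, 30.5 for Ddit4 and 0.530 for Zbtb16. Its level was 857 CPM in 2KR eWAT (8223 reads), 1016 CPM in WT eWAT (10983 reads), 980 CPM in 2KR spleen (14943 reads) and 711 CPM in WT spleen (8803 reads). The tissues overlapped, with WT spleen the lowest library and WT eWAT and 2KR spleen nearly level. Tsc22d3 had a tissue log2 fold change of 0.15 (SE 0.26, edgeR adjusted p = 0.649), with an SE larger than the difference. Its FPKM spanned 1.54-fold from the lowest to the highest library, against 1.49-fold for Fkbp5 and 5.01-fold for Ddit4.

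Zbtb16 (chromosome 9, 48462402 to 48644050) encodes PLZF, a zinc finger factor that programmes natural killer T cells and other innate-like lymphocytes and is strongly induced by glucocorticoids in several tissues. It was rare in all 4 libraries: 56 reads in 2KR eWAT, 46 in WT eWAT, 2 in 2KR spleen and 7 in WT spleen. These are 5.84, 4.25, 0.131 and 0.566 CPM in that order, the 2KR spleen value lying under the limit that a count of 0 allows. Both eWAT libraries were above both spleen libraries, and the gene reached the minimum level for testing only through eWAT. The edgeR log2 fold change was 3.87 (SE 0.79, adjusted p = 0.00149), based on 102 reads in eWAT and 9 in spleen. The ratio within WT was 2.59 (95% exact interval 1.75 to 4.30) and within 2KR 4.33 (3.56 to 8.56), intervals that cover counting error only. The call was lost in FPKM when genes had to reach 1 FPKM in a library, where the log2 difference was 0.90 (limma adjusted p = 0.0647). Of 9 markers tested for innate-like T, NK and innate lymphoid cells, of 10 listed, 3 rose in eWAT (Hs3st1 by 5.53, Rora by 2.67 and Tbx21 by 1.13 on the log2 scale) and 2 fell (Cd160 by 3.75 and Eomes by 1.45). These counts are near the shares of all genes tested (33.7% rose and 23.2% fell). Hs3st1 reached the minimum level only through eWAT and so could hardly be called lower. Of the other 8 markers tested 4 were called, with a median log2 fold change of 0.05. The list summed to 359 and 497 CPM in 2KR and WT eWAT, against 140 and 162 CPM in 2KR and WT spleen. Rora alone gave 203 and 391 CPM of the 2KR and WT eWAT sums, against 50.8 and 42.8 CPM of the spleen sums. Of the 10 markers, 4 were higher in both eWAT libraries than in both spleen libraries. Klrb1c, the NK1.1 gene, was at 2.71, 2.59, 2.62 and 4.04 CPM. Whether such cells, or the macrophages and fibroblasts above, contributed to Zbtb16 was not tested.

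Ddit4 (chromosome 10, 59412423 to 59414518) encodes REDD1, which inhibits the growth kinase complex mTORC1 and is induced by glucocorticoids, hypoxia and energy stress. It went the other way, with 133 reads (13.9 CPM) in 2KR eWAT and 212 reads (19.6 CPM) in WT eWAT, against 1234 reads (81.0 CPM) in 2KR spleen and 1065 reads (86.1 CPM) in WT spleen. The 2 tissues were fully separated, and Ddit4 fell by 2.32 in log2 units in eWAT, which is 4.98-fold (SE 0.22, adjusted p = 3.04e-06 by edgeR). Of all genes tested, 99.4% had a higher tissue log2 fold change than Ddit4. This share was 32.5% for Nr3c1, 31.8% for Sgk1, 7.62% for Zbtb16, 48.9% for Tsc22d3 and 48.8% for Fkbp5. Among 15 partners of Ddit4 and Sgk1 in mTORC1 and FOXO signalling 1 rose, 2 fell and 12 did not pass. Of all genes tested 33.7% rose and 23.2% fell. Nearly all of the 15 averaged at least 20 CPM, a level at which 10.2% of genes rose and 42.8% fell. Foxo1, a factor of resting T cells that SGK1 can phosphorylate, fell by 1.67 (SE 0.22, adjusted p = 6.22e-05), and Akt2 fell by 0.66. Atf4, the stress factor that can drive Ddit4, rose by 0.89 (adjusted p = 0.00481). Mtor had a tissue log2 fold change of 0.24 (adjusted p = 0.421), and the median of the list was -0.07 against 0.11 for all genes tested.

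Sgk1 (chromosome 10, 21601990 to 21719708) encodes serum- and glucocorticoid-regulated kinase 1, which acts on ion channels, FOXO factors and T helper cell fate. It had 1889 reads (197 CPM) in 2KR eWAT and 2297 reads (212 CPM) in WT eWAT, against 1179 reads (77.3 CPM) in 2KR spleen and 784 reads (63.4 CPM) in WT spleen. Both eWAT libraries were above both spleen libraries, as for the receptor. The log2 fold change was 1.54 (SE 0.20, edgeR adjusted p = 4.52e-05), or 2.91-fold. Per length, Sgk1 stood at 96.6 FPKM in 2KR eWAT and 87.1 FPKM in WT eWAT, against 31.2 FPKM in 2KR spleen and 24.8 FPKM in WT spleen, close to the receptor in each library.

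**Figure D2:**
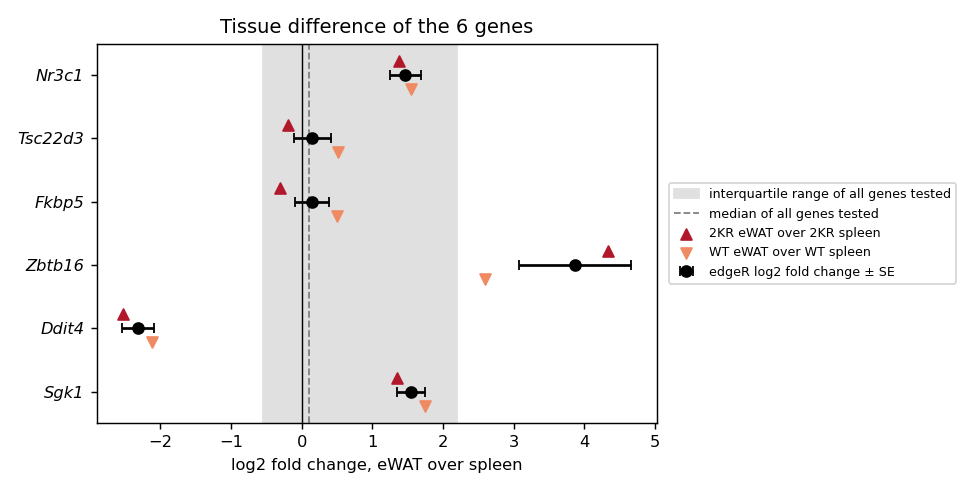
Log2 fold change of eWAT over spleen (horizontal axis) for the 6 genes, as the edgeR estimate with its standard error (black circles), 2KR eWAT over 2KR spleen (upward triangles) and WT eWAT over WT spleen (downward triangles), with the interquartile range and the median of all 16488 genes tested in grey. Nr3c1, Zbtb16 and Sgk1 lie right of 0 and Ddit4 left of it in both genotypes, while the triangles of Tsc22d3 and Fkbp5 lie on opposite sides of 0, which total count scaling changes for Tsc22d3 (0.08 within 2KR).

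The deposited transcript estimates split Sgk1 into 6 transcripts and Tsc22d3 into 2 by start site, while the other 4 genes had 1 transcript each. Most Sgk1 came from NM_011361, with 96.7% of the gene's FPKM in 2KR eWAT, 94.99% in WT eWAT and nearly all of it in both spleen libraries. A longer transcript that starts upstream, NM_001161850, was at 0.621 FPKM in 2KR eWAT (Cufflinks interval 0.128 to 1.12) and 3.37 FPKM in WT eWAT (2.41 to 4.34). It was estimated at close to 0 in spleen, with upper bounds of 0.0508 FPKM in 2KR spleen and 0.0612 FPKM in WT spleen. This start was thus seen in the eWAT libraries alone and was lower in 2KR eWAT, with intervals that did not meet. Another upstream transcript, NM_001161847, had 1.70 FPKM in 2KR eWAT (0.891 to 2.50) and 0.837 FPKM in WT eWAT (0.354 to 1.32). Its upper bounds were 0.0504 and 0.0607 FPKM in 2KR and WT spleen. The transcript that starts farthest upstream, NM_001161845, was at 0.845 FPKM in 2KR eWAT (0.349 to 1.34) and 0.124 FPKM in WT eWAT (0 to 0.294). Its upper bounds were 0.0417 and 0.0502 FPKM in 2KR and WT spleen. NM_001161847 and NM_001161845 thus had higher estimates in 2KR eWAT than in WT eWAT, opposite to NM_001161850. The eWAT intervals did not meet for NM_001161845 but overlapped for NM_001161847.

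Tsc22d3 showed a similar split. Its main transcript, NM_010286, encodes the short GILZ form and made up 98.8% of the gene's FPKM in 2KR eWAT and 98.9% in WT eWAT, against 99.97% in 2KR spleen and all of it in WT spleen. The long transcript, NM_001077364, with a far upstream start, was at 6.77 FPKM in 2KR eWAT (5.03 to 8.51) and 5.89 FPKM in WT eWAT (4.51 to 7.27), against 0.159 FPKM in 2KR spleen (0 to 0.356) and an upper bound of 0.0751 FPKM in WT spleen. The intervals of the minor transcript did not meet between tissues, while the gene as a whole did not pass the test. Transcript estimates divide shared reads by a model, each value is from 1 library, and no test was made on them. The share of other cells in these transcripts was not tested.

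**Figure D3:**
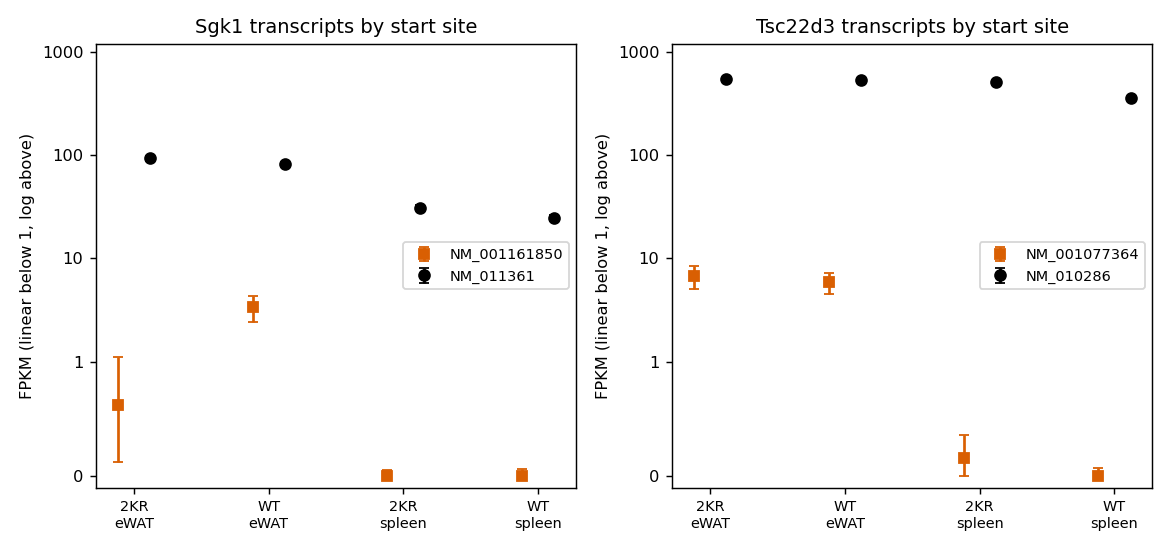
FPKM of the main transcript (black circles) and an upstream-start transcript (orange squares) of Sgk1 and Tsc22d3 in the 4 libraries, with Cufflinks' interval bounds, on an axis that is linear below 1 and logarithmic above. The upstream transcripts shown were at 0.621 and 3.37 FPKM (Sgk1) and 6.77 and 5.89 FPKM (Tsc22d3) in 2KR and WT eWAT. They were at or near 0 in spleen.

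So that each minor transcript, seen mainly in eWAT, can be set beside its gene's main one, bases near their starts are shown. These are the 250 bases before the RefSeq start nearest each transcript, for Tsc22d3 at the distances given below. They are from RefSeq, build GRCm38.p6, matched by gene symbol and read 5′ to 3′ on the gene's own strand. Windows were found for 4 of the 6 genes, 11 in all (Tsc22d3, Fkbp5, Ddit4 and Sgk1, but not Nr3c1 or Zbtb16). Capitals mark a match on either strand to the palindromic glucocorticoid response element, in which the core AGAACA and its reverse complement flank any 3 bases, or to that core alone. Core matches also lie inside the full element, at both of its ends.
Sgk1, start of NM_001161850, chr10:21993640-21993889, plus strand: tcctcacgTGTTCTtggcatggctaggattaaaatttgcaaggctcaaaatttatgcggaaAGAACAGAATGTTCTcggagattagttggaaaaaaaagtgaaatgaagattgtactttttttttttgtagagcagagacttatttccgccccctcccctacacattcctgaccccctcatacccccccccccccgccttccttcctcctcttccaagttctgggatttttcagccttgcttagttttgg
Sgk1, start of NM_011361, chr10:21994416-21994665, plus strand: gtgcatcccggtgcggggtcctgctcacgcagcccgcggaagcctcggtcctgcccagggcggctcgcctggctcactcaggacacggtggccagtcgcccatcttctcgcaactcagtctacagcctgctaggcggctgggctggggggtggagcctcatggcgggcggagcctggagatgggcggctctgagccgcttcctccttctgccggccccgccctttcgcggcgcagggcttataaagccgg
Tsc22d3, start nearest NM_001077364, chrX:140600523-140600772, minus strand: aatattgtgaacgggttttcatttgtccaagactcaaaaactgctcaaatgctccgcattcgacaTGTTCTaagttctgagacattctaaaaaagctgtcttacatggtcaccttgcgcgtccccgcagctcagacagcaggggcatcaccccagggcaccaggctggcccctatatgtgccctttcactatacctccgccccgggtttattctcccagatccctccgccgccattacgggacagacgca
Tsc22d3, start nearest NM_010286, chrX:140542669-140542918, minus strand: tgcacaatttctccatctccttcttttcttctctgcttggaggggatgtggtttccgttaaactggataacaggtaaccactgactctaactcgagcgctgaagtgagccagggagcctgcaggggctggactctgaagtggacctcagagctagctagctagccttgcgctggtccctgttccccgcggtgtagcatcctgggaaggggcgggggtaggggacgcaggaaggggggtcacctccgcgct

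A full element, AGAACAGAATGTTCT, stood in the Sgk1 window, at chr10:21993701-21993715. It began 189 bases before the start of NM_001161850 and 965 bases before that of the main transcript NM_011361, whose own 250-base window held neither the element nor its core. Of 32851 windows of the same length, 3 (0.00913%) held the full element, those of Acnat2, Sgk1 and Gm35041, whereas the core was found in 16.1%. Among the Sgk1 windows not shown, that of NM_001161847, also seen in eWAT alone, held neither the element nor its core. That of NM_001161845 held a core match. So did that of NM_001161849, a transcript estimated at close to 0 in all 4 libraries. The window nearest the long Tsc22d3 transcript held 1 core match and that nearest the short one none. The windows of Fkbp5 and Ddit4 held none, which says only that these letters are not in these 250 bases. The GENCODE starts of the 2 Tsc22d3 transcripts lay 137 bases (NM_001077364) and 519 bases (NM_010286) from the RefSeq starts used for the windows. Neither window is thus the 250 bases directly before its transcript's GENCODE start, and for NM_010286 the distance exceeds the window's length.

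The second question was whether the PPARg-2KR genotype changed these genes. No genotype effect common to both tissues passed for any of the 6 genes (edgeR with tissue as a further term, 1 residual degree of freedom, adjusted p = 0.9999 for each). None of the 6 had an unadjusted p under 0.05, which 4.71% of all genes had, and DESeq2 also called 0 of them. Over all genes 0.0667% were lower in 2KR and 0% higher. Fkbp5 had the lowest unadjusted p of the 6 (0.0921), with a log2 fold change of -0.39 (SE 0.22). With 1 library per genotype and tissue, the ratios that follow have no replicate check, and their 95% exact intervals cover counting error only.

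Within eWAT, Fkbp5 had the largest difference of the 6 genes, with a counting interval that excluded 0. It stood at 140 CPM in 2KR eWAT against 242 CPM in WT eWAT, a log2 ratio of -0.79 (-0.89 to -0.70). Ddit4 had -0.49 (-0.82 to -0.18) on 133 reads in 2KR eWAT and 212 in WT eWAT. Both kept this direction under every scaling tried, with Fkbp5 at -0.54 under total count scaling and -0.53 in FPKM, and Ddit4 at the smaller values of -0.24 and -0.23. The other differences were smaller or depended on the scaling. Tsc22d3 was at -0.24 (-0.29 to -0.20), Sgk1 at -0.11 (-0.20 to -0.02) and Nr3c1 at -0.09 (-0.15 to -0.04), yet total count scaling, which moves the median of all genes from -0.07 to 0.18, put them at 0.01, 0.15 and 0.16. Zbtb16 was at 0.44 (-0.13 to 1.05). None of the 6 reached a log2 ratio of 1 or -1 in eWAT, where 5.52% of 12364 genes at 5 CPM or more lay at 1 or higher and 2.32% at -1 or lower.

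Within spleen, Tsc22d3 had the largest positive ratio of the 6 genes, with 980 CPM in 2KR spleen against 711 CPM in WT spleen and a log2 ratio of 0.46 (0.42 to 0.50). The interquartile range of all genes lay between -0.28 and 0.12. Sgk1 was at 0.29 (0.16 to 0.42), with 77.3 CPM in 2KR spleen and 63.4 CPM in WT spleen. The intervals of Nr3c1 (0.07, -0.01 to 0.15), Fkbp5 (0.02, -0.07 to 0.10) and Ddit4 (-0.09, -0.21 to 0.03) included 0. Zbtb16, at -1.30 (-5.41 to 0.28), rested on 2 and 7 reads and was the only member of the 6 past -1, where 5.81% of genes lay in spleen against 1.04% at 1 or higher.

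**Figure D4:**
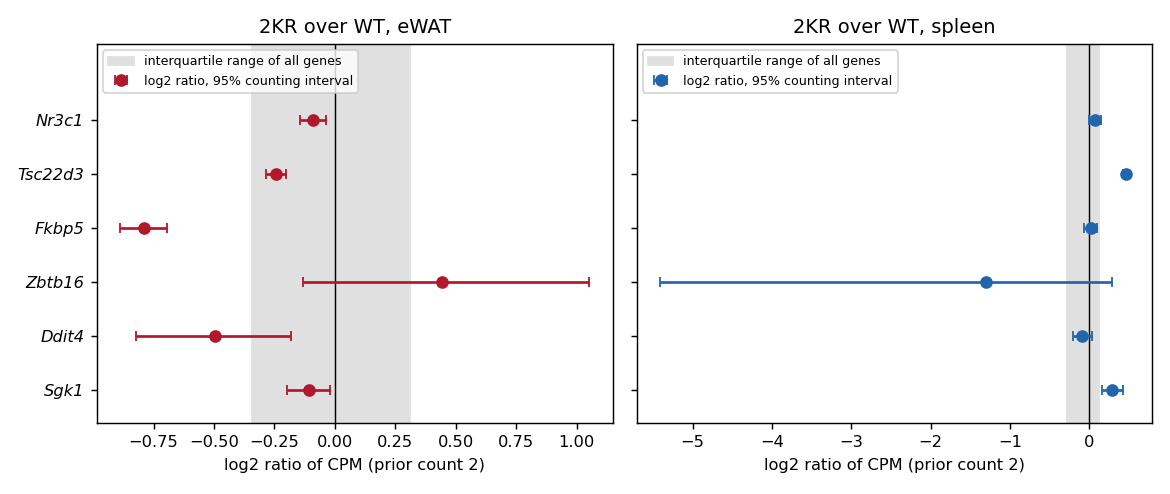
Log2 ratio of 2KR over WT (horizontal axes, each with its own range) for the 6 genes in eWAT (left) and spleen (right), with 95% exact counting intervals and the interquartile range of all genes in grey. Fkbp5 at -0.79 and Ddit4 at -0.49 lie lowest in eWAT, and Tsc22d3 at 0.46 lies to the right of the grey band in spleen.

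The receptor's partners were next compared between tissues, against the shares of all genes tested given above (33.7% higher and 23.2% lower). Of 15 chaperones and cochaperones, 0 rose in eWAT, 4 fell and 11 did not pass in edgeR, while DESeq2 called 8 lower and 0 higher. Ppid, the cyclophilin found in receptor complexes, fell by 1.19 (SE 0.19, adjusted p = 0.000316), Stub1, the ubiquitin ligase CHIP, by 0.65, and Cdc37, a kinase-loading cochaperone, by 0.64. The median log2 fold change of the list was -0.43 against 0.11 for all genes tested. All 15 averaged at least 20 CPM, a level at which 10.2% of genes rose and 42.8% fell. Hsp90ab1, the main HSP90 gene of these cells, was at 1420 CPM in 2KR eWAT, 2122 CPM in WT eWAT, 2169 CPM in 2KR spleen and 1888 CPM in WT spleen and did not pass (log2 fold change -0.20, adjusted p = 0.591). Fkbp4, the close relative of Fkbp5 that promotes receptor transport, was at 141, 234, 277 and 244 CPM in the same order, and did not pass either (-0.48, adjusted p = 0.103).

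Within eWAT, 13 of the 15 chaperone genes were below 0 for 2KR over WT, with a median of -0.46 against -0.07 for all genes, and 10 of 15 with a median of -0.20 under total count scaling. Stip1, the HSP70 to HSP90 adaptor HOP, was at 154 CPM in 2KR eWAT and 277 CPM in WT eWAT (log2 ratio -0.85, -0.94 to -0.76), and Fkbp4 at -0.73 (-0.83 to -0.64). None of the 15 reached -1. In spleen the median was 0.18, with Stip1 at 0.43.

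Coregulators and steroid supply genes gave few calls. Of 13 coregulators 2 rose, 2 fell and 9 did not pass. Ppargc1a, which encodes the metabolic coactivator PGC-1alpha, rose by 2.08 (SE 0.62, adjusted p = 0.0112) at 10.4 CPM in 2KR eWAT and 4.53 CPM in WT eWAT, against 1.12 CPM in 2KR spleen and 2.42 CPM in WT spleen. Nrip1, a nuclear receptor corepressor, rose by 0.76, whereas Carm1, an arginine methyltransferase, fell by 1.19. The coactivator gene Ncoa1 fell by 0.56. Of the 10 steroid supply genes and related receptors 3 rose, 1 fell, 5 did not pass and Pgr was not tested. Hsd11b2 and Cyp11a1, 2 of the 3 that rose, reached the minimum level only through eWAT and so could hardly be called lower. Of the other 7 genes tested 2 were called. Hsd11b1, whose enzyme regenerates active glucocorticoid, was expressed in all libraries at 102 CPM in 2KR eWAT, 116 CPM in WT eWAT, 129 CPM in 2KR spleen and 117 CPM in WT spleen (log2 fold change -0.18, adjusted p = 0.43). Cyp11a1, the side-chain cleavage enzyme that starts steroid synthesis, was at 85.4 CPM in 2KR eWAT and 43.3 CPM in WT eWAT, against 0.590 CPM in 2KR spleen and 0.242 CPM in WT spleen, a rise of 7.18 (SE 0.44, adjusted p = 5.0e-08). The gene was testable only through eWAT. Mast cells can express this gene, and the 6 mast cell markers summed to 79.3 CPM in 2KR eWAT and 12.4 CPM in WT eWAT, against 6.69 CPM in 2KR spleen and 8.57 CPM in WT spleen. Their part in Cyp11a1 was not tested.

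Of 12 relatives of the 6 genes, 3 rose (Sgk2, Ddit4l and Tsc22d1), 3 fell and 6 did not pass. These shares are near the 33.7% and 23.2% of all genes tested. Sgk2 and Ddit4l, at under 5 CPM in each library, reached the minimum level only through eWAT and so could hardly be called lower. Of the other 10 relatives 4 were called, Tsc22d1 higher and 3 lower. Tsc22d4 fell by 1.07 (SE 0.27, adjusted p = 0.00472) and Tsc22d1 rose by 1.25, while Tsc22d3 did not pass. The kinase gene Sgk3 was at 48.4 CPM in 2KR eWAT and 29.0 CPM in WT eWAT, against 40.8 CPM in 2KR spleen and 29.7 CPM in WT spleen, and did not pass (0.13, adjusted p = 0.678). Zbtb7b, which encodes the CD4 lineage factor ThPOK, fell by 1.90 where Zbtb16 rose.

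Among 22 other genes known to be induced by glucocorticoids, 16 rose in eWAT, 4 fell and 2 did not pass, with a median log2 fold change of 1.23 against 0.11 for all genes tested (0.27 under total count scaling). Of all genes tested 33.7% rose and 23.2% fell. Most of the list averaged at least 20 CPM, a level at which 10.2% of genes rose and 42.8% fell. DESeq2 called 15 of the list higher and 6 lower. Cebpd, Mt2 and Pdk4 reached the minimum level only through eWAT, and of the other 19 genes 17 were called, with a median of 1.02. The list shares Dusp1 with the immediate early genes and Tsc22d4 with the relatives. Anxa1, the anti-inflammatory annexin A1, was at 387 CPM in 2KR eWAT and 1534 CPM in WT eWAT, against 14.4 CPM in 2KR spleen and 10.02 CPM in WT spleen, a rise of 6.29 (SE 0.55, edgeR adjusted p = 1.3e-06). The metallothionein genes Mt1 and Mt2 rose by 4.26 and 4.44. Per1, a clock gene with a receptor-driven promoter, rose by 2.05, Klf9 by 1.19 and Dusp1, a MAP kinase phosphatase, by 1.27. Txnip, Pik3ip1, Il1r2 and Tsc22d4 were the 4 that fell. Il1r2, the decoy receptor for IL-1, fell by 3.12, and Pik3ip1, an inhibitor of PI3 kinase, fell by 2.65. Targets thus moved both ways, as Sgk1 and Ddit4 did.

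Of 12 inflammatory genes known to be repressed by glucocorticoids, 11 rose in eWAT, 0 fell and Tnf did not pass (0.44, adjusted p = 0.111), where 33.7% of all genes tested rose and 23.2% fell. DESeq2 also called 11 higher and 0 lower. However, 6 of the 12 (Il1b, Il6, Ccl2, Ptgs2, Il2 and Csf2) reached the minimum level for testing only through eWAT and so could hardly be called lower. Of the other 6, 5 rose, with a median of 2.03 against 0.11 for all genes tested. Il1b was at 505 CPM in 2KR eWAT and 267 CPM in WT eWAT, against 0.459 CPM in 2KR spleen and 2.51 CPM in WT spleen. Ccl2 rose by 6.52 and Il6 by 5.93. Several of these are products of myeloid and stromal cells, whose marker sums were higher in eWAT as given above. Of 15 immediate early and stress genes, which share Dusp1 with the induced list, 11 rose, 3 fell and 1 did not pass in edgeR, and 8 rose and 2 fell in DESeq2. They summed to 9449 CPM in 2KR eWAT and 23143 CPM in WT eWAT, against 6263 CPM in 2KR spleen and 6027 CPM in WT spleen, with Atf3 up by 9.36 and Fosb by 6.18. How far handling of the tissue or the other cells contributed to the glucocorticoid lists was not tested.

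Within eWAT, the induced list lay mostly below 0 for 2KR over WT. Of 21 of its genes at 5 CPM or more in a library, 17 were below 0 and 6 at -1 or lower (Anxa1, Glul, Per1, Rgs2, Nfkbia and Tsc22d4), with a median of -0.48. All genes had a median of -0.07 and 2.32% at -1 or lower. Total count scaling left 14 below 0, 2 at -1 or lower and a median of -0.23. Anxa1 had a log2 ratio of -1.99 (-2.04 to -1.93), and Glul, the glutamine synthetase gene, of -1.46 (-1.62 to -1.30) with 44.4 CPM in 2KR eWAT and 122 CPM in WT eWAT. Per1 was at 72.8 CPM in 2KR eWAT and 153 CPM in WT eWAT (-1.07, -1.20 to -0.95). In spleen the list's median was 0.14, with 0 genes at -1 or lower and 0 at 1 or higher. Immediate early and stress genes had a median of -1.14 in eWAT, with 9 of 15 at -1 or lower, and 0.08 in spleen. All genes had a median of -0.07 in eWAT with 2.32% at -1 or lower, and total count scaling left 6 of the 15 at -1 or lower and a median of -0.89. Fkbp5, most of the induced list and most of the immediate early list thus had lower values in 2KR eWAT than in WT eWAT, and the part of one in another was not tested. In the same comparison fibroblast and mesothelial markers had 8 of 8 below 0 (median -1.20) and Treg and T cell markers 9 of 10 (median -0.37). Macrophage markers had 9 of 9 above 0 (median 0.50), dendritic cell markers 7 of 8 (median 0.85) and mast cell markers 6 of 6 (median 3.32). The part of these cells in the lists and in Fkbp5 was not tested. The repressed list had a median of -0.02 in eWAT (0.23 under total count scaling), with Csf2 at -1.83 and Il1b at 0.92, and a median of -0.57 in spleen.

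**Figure D5:**
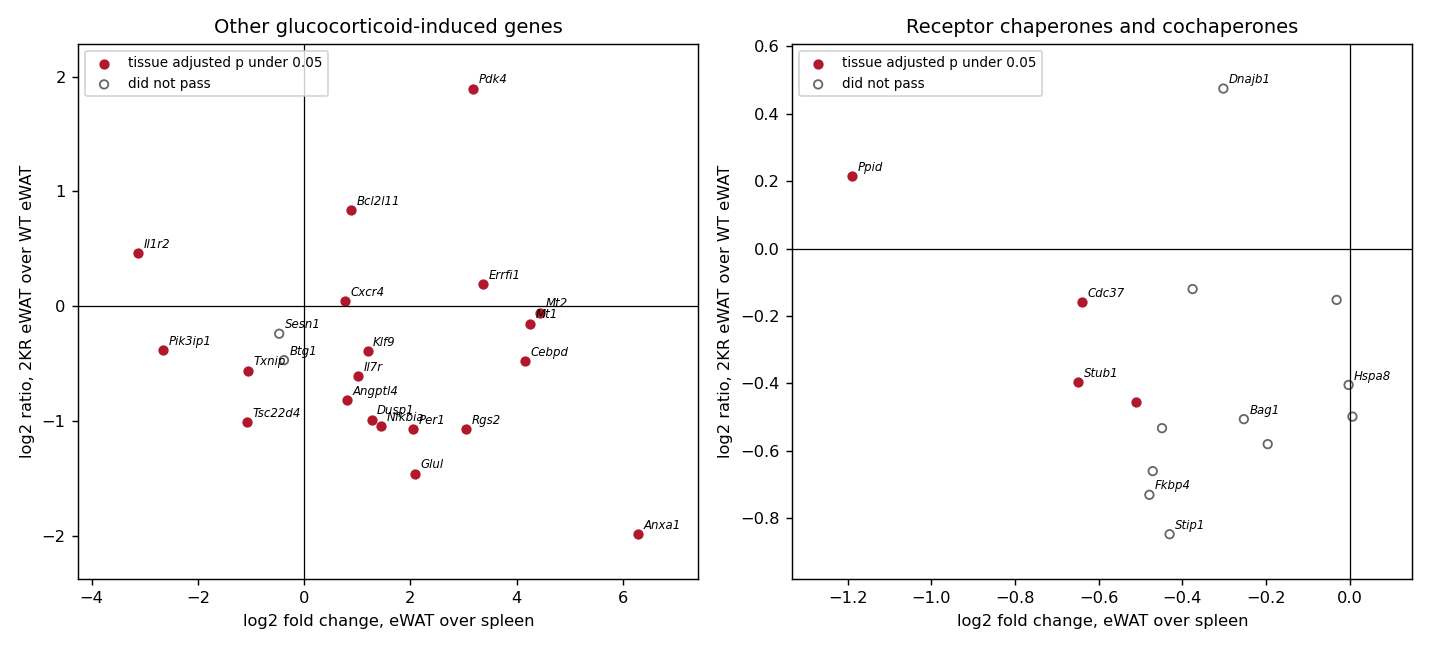
Log2 fold change of eWAT over spleen (horizontal) against log2 ratio of 2KR eWAT over WT eWAT (vertical) for 22 other glucocorticoid-induced genes (left) and 15 receptor chaperones and cochaperones (right), with different axis ranges. Filled points passed the tissue test, and both measures use the eWAT libraries, so no relation between them is read. Anxa1 lies lowest and farthest right on the left panel, and Ppid is the lowest in eWAT relative to spleen on the right panel.

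To place each gene among all others, the 3 genes with the nearest pattern were taken from 7689 genes averaging at least 20 CPM, by Euclidean distance between centred log2 CPM values over the 4 libraries. The nearest to Sgk1 was Nr3c1 itself (distance 0.176), followed by Ets2 (0.181) and Atf6 (0.181). The genes nearest to Nr3c1 were Carhsp1 (0.0633), Idh1 (0.0816) and Sdc4 (0.0834). Fkbp5 lay closest to Fam69a (0.0505), Aplp1 (0.0656) and Esyt1 (0.073), each with WT eWAT highest and 2KR eWAT lowest. Tsc22d3 lay closest to Eri2 (0.0395), and Phf6 (0.0559) was also among its 3 nearest. The matches of Ddit4 were Msl3l2 (0.128), Tesc (0.188) and Sdhaf1 (0.189). Zbtb16, with few reads, had no match as close, its nearest being Cd300a, an inhibitory receptor of myeloid cells (0.376), then Fcgrt (0.403) and Napsa (0.436). Between the 6 genes the distance was smallest for Nr3c1 and Sgk1 (0.176), next for Tsc22d3 and Fkbp5 (0.502), and largest for Zbtb16 and Ddit4 (5.89). With 4 points each, these distances describe the libraries only.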

How the data were processed

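Reads of 100 bases from poly-A selected TruSeq libraries were converted by bcl2fastq 1.8.4, and Tophat 2.1.0 placed them on mm9 with 4 mismatches and 10 hits at most, as the deposited readme states. The deposited counts are whole, unscaled read numbers per gene symbol made by the authors. The deposited FPKM values, per gene and per transcript, came from Cufflinks 2.0.2 run by the authors. No source used here names the counting program, its strand setting or its treatment of multiple hits, and the submitters' processing notes also name mm8. No other gene's locus overlapped those of the 6 genes (0 for each).

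Counts were tested with edgeR 4.0.16 in R 4.3.3 (quasi-likelihood, TMM, minimum count of 10, Benjamini-Hochberg adjustment over 16488 genes, threshold 0.05). Tissue was tested as 2 eWAT against 2 spleen libraries, and genotype with tissue as a term. The biological coefficients of variation were 0.221 and 0.234. An SE is the fold change over the root of the F statistic. Ratios within a tissue or genotype are log2 CPM with a prior count of 2 and 95% exact binomial intervals. A count of 0 was given a limit of 3 reads. Alternatives were DESeq2 1.42.0, limma 3.58.1 on log2(FPKM + 1) and log2(FPKM + 0.1), total count scaling, no filter, a prior count of 0.5, genotype as a block and each library left out. Python 3.11.15, numpy 2.4.6, pandas 2.3.3, scipy 1.17.1 and matplotlib 3.10.9 were used.

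The 6 genes and the 17 companion lists were chosen with earlier results of these data known. List genes were named by rule: up to 3 with the largest tissue change past the threshold, and up to 2 with the largest eWAT genotype ratio among those with 10 CPM and 100 reads. Foxp3 and the 3 nearest patterns per gene were named too, except 1 gene that is not reported here. Adipoq, Klrb1c, Eomes, Hsp90ab1, Ncoa1, Hsd11b1, Tsc22d1, Sgk3, Per1, Klf9, Dusp1, Txnip, Pik3ip1, Il1r2, Rgs2, Nfkbia, Tnf, Ptgs2, Il2, Cebpd, Pdk4, Cd79b, H2-Aa, H2-Ab1 and Pgr were named after their values were seen, and Acnat2 and Gm35041 for their promoter match. The tissue test was tested on simulated data of 15932 genes with a coefficient of variation of 0.2. It found 38 of 100 genes with a log2 change of 1 and 100 of 100 with a change of 2. Changed genes were drawn from those of at least 5 CPM, equally many up and down, with no genotype difference. Zbtb16, averaging 2.70 CPM, lay below that level. In the real data many more genes were called and each tissue mixed the genotypes, so recovery there can differ.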

Additional observations from a re-analysis of the deposited data

Results flagged for a closer look

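Tsc22d3, Fkbp5 and Sgk1 had ratios of opposite sign in the 2 groups of a contrast, each with a counting interval that excluded 0. The difference between the groups was not tested, since each group holds 1 pair of libraries. For 2KR over WT, Tsc22d3 was at -0.24 in eWAT and 0.46 in spleen, and Sgk1 was at -0.11 in eWAT and 0.29 in spleen. Under total count scaling the eWAT value became 0.01 for Tsc22d3 and 0.15 for Sgk1, so the opposite signs were lost. For eWAT over spleen, Tsc22d3 was at -0.19 within 2KR and 0.51 within WT, and Fkbp5 was at -0.31 within 2KR and 0.50 within WT. Total count scaling gave 0.08 for Tsc22d3 and -0.03 for Fkbp5 within 2KR.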

How the results depend on the processing

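For eWAT over spleen, Nr3c1, Sgk1 and Ddit4 kept their direction and call under every alternative run, and Zbtb16 under all but the FPKM filter (0.90, adjusted p = 0.0647 by limma). With each library left out, values ranged from 1.32 to 1.44 for Nr3c1, 1.36 to 1.63 for Sgk1, -2.69 to -2.16 for Ddit4, 3.07 to 5.11 for Zbtb16, -0.40 to 0.42 for Fkbp5 and -0.11 to 0.34 for Tsc22d3. A lone library was assumed to vary like the other group. Fkbp5 was called higher only without 2KR eWAT (adjusted p = 0.0389). Counts over all genes ranged from 3403 (without 2KR eWAT) to 5491 higher and from 1909 (without WT spleen; 2178 without 2KR spleen) to 5278 lower. In limma on FPKM, 3070 were higher and 2299 lower with a pseudocount of 1, 2534 lower with 0.1, and 2751 higher with the FPKM filter. With genotype as a replicate block, 4487 were higher and 4007 lower, Nr3c1 was at 1.46 and no call on the 6 genes changed.

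For the common genotype effect, 2 genes were lower in DESeq2, 10 higher under total count scaling, and 9 higher and 42 lower with no filter. Nr3c1 was at 0.0021 in DESeq2 and 0.13 under total count scaling. With each library left out, which leaves no test, values ranged from -0.092 to 0.068 for Nr3c1, -0.24 to 0.46 for Tsc22d3, -0.79 to 0.017 for Fkbp5, -2.03 to 0.46 for Zbtb16, -0.50 to -0.088 for Ddit4 and -0.11 to 0.29 for Sgk1.

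For 2KR over WT in eWAT, total count scaling reversed Nr3c1 (0.16), Tsc22d3 (0.010) and Sgk1 (0.15), and FPKM ratios reversed them too (0.19, 0.039 and 0.15 in that order), with Fkbp5 at -0.54 and -0.53. In spleen, DESeq2 size factors put Tsc22d3 at 0.52. For eWAT over spleen within 2KR, Tsc22d3 reversed under total count scaling (0.082) and in FPKM (0.13). There, total count scaling gave 1.66 for Nr3c1, -0.032 for Fkbp5, -2.26 for Ddit4 and 1.62 for Sgk1. FPKM gave 1.70, -0.0086, -2.27 and 1.63 for the same genes. DESeq2 size factors gave 1.20 for Nr3c1, -0.38 for Tsc22d3, -0.49 for Fkbp5 and 1.16 for Sgk1. Within WT, Tsc22d3 was at 0.56 (total count), 0.42 (DESeq2) and 0.58 (FPKM), Nr3c1 at 1.45 (DESeq2) and 1.62 (FPKM), and Fkbp5 at 0.41 (DESeq2). Beyond the scaling itself, the cause was not tested. The 9 spleen reads limit Zbtb16.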
